A study of Mus musculus with 20 samples.

Results

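The 37 genes described here encode proteins that hold epithelial cells together and give them an apical and a basal side: 14 claudins, 4 other membrane proteins of tight junctions, 3 tight junction plaque proteins, 3 polarity proteins, 3 classical cadherins, 6 desmosome proteins, and EpCAM with a pair of membrane proteases and a sorting adaptor. They were taken by gene symbol from a count table of 46603 genes, and each had 1 row. The libraries came from mammary glands of virgin FVB/N females, 6 to 8 weeks old, with 1000 sorted cells per library and full-length cDNA amplification (SMART-Seq). Mammary repopulating units (MRU) are cells in a gate for medium CD24 and high CD49f, which holds the basal cells of the gland. The populations were MRU carrying both CD200 and CD200R1 (CD200+CD200R1+ MRU), MRU not in that double-positive gate (remaining MRU), non-MRU cells with CD200 and without CD200R1 (CD200+ non-MRU), and non-MRU cells with CD200R1 and without CD200 (CD200R1+ non-MRU). The cells were depleted of lineage-positive cells by a kit before sorting, and no group was treated or carried a modified allele. Each population came from the same 5 individual mice, numbered 2 to 6, which gave 20 libraries, and per the labels about 10% of the cells in 1 library (CD200R1+ non-MRU, mouse 4) were from mouse 3.

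Tight junctions seal the space between epithelial cells near their apical side, and the claudins present decide which ions pass. Adherens junctions are built on cadherins, which bind the same cadherin on the neighbouring cell, and desmosomes tie the keratin network of one cell to that of the next. In the mammary gland, luminal cells line the ducts and form the tight junctions that hold milk in, while basal myoepithelial cells lie outside them, contract, and are rich in P-cadherin and desmosome proteins.

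Library totals ran from 10853587 to 13862963 counts, and levels are given as CPM, counts scaled to a common library size with TMM factors. The labels call all 20 samples epithelial cells, and the markers of 1 population go against this. In CD200R1+ non-MRU, Krt8, Krt14 and Epcam stood at 0.907 to 19.9, 0.186 to 1.51 and 1.32 to 13.4 CPM, and 10 fibroblast markers summed to 69400 to 95000 CPM. Summed CPM of 8 basal markers was 12900 to 25000 in CD200+CD200R1+ MRU, 11200 to 19300 in remaining MRU, 304 to 1050 in CD200+ non-MRU and 33.3 to 161 in CD200R1+ non-MRU. For 11 luminal markers the sums were 2300 to 4410, 2380 to 4810, 12000 to 21100 and 55.1 to 178 in the same populations. CD200+ non-MRU also carried fibroblast markers at a sum of 7120 to 17700 and 10 lymphocyte markers at 1240 to 2750. These are bulk libraries, so fewer cells of a type and less RNA per cell cannot be told apart.

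**Figure D1:**
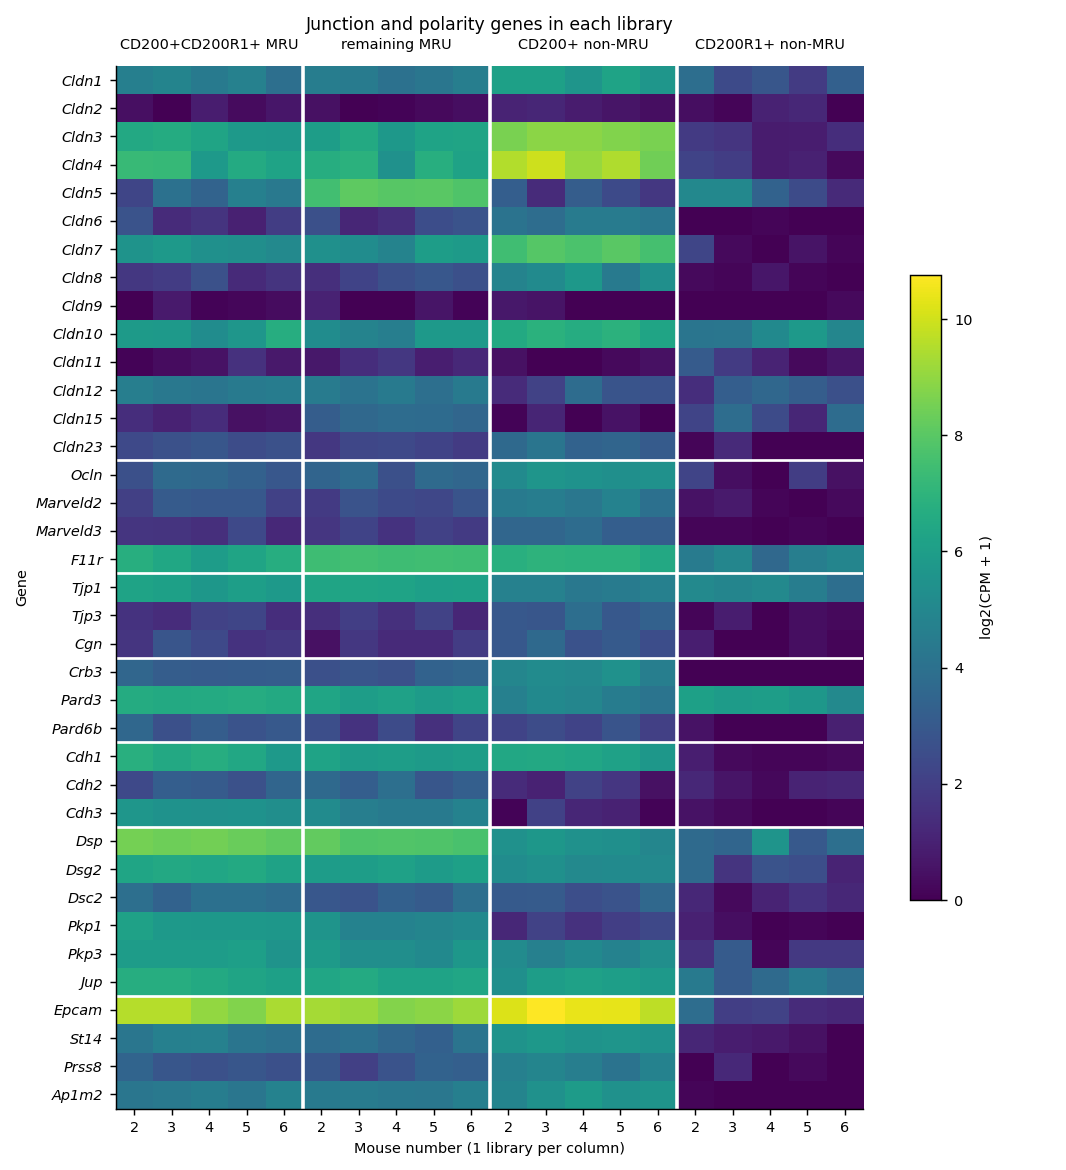
Level of each of the 37 genes (rows, grouped by role) in each of the 20 libraries (columns, by population and mouse number), as log2(CPM + 1). Epcam, Cldn3 and Cldn4 are brightest in CD200+ non-MRU, Dsp in the 2 MRU populations, Cldn5 in remaining MRU, and Crb3 has no count in the 5 CD200R1+ non-MRU libraries.

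The mean level was highest in CD200+ non-MRU for 19 genes, in CD200+CD200R1+ MRU for 11, in remaining MRU for 6 and in CD200R1+ non-MRU for 1. Of the 19, 15 were higher in CD200+ non-MRU than in each of the other 3 populations at an adjusted p under 0.05. They were Cldn1, Cldn3, Cldn4, Cldn6, Cldn7 and Cldn8, the occludin family genes Ocln, Marveld2 and Marveld3, Tjp3, Crb3, Epcam, St14, Prss8 and Ap1m2. Of the 6 in remaining MRU, Cldn5 and F11r passed against each of the other 3. None of the 11 with their highest mean in CD200+CD200R1+ MRU passed against remaining MRU. Adjusted p-values are from edgeR's quasi-likelihood test with Benjamini-Hochberg adjustment over 17236 genes, and 36 of the 37 genes were tested. The exception was Cldn9, which had a mean of at most 0.327 CPM in any population and did not pass the filter on low counts.

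The promoter sequences of 6 of these genes are shown as examples of the stretches searched. Crb3, Ap1m2, Epcam, Cldn4 and Cldn7 were highest in CD200+ non-MRU and Cldn5 in remaining MRU. They were picked with their values known and are not a ranking. Where a gene had several windows, the stretch with the most matches to the motif is shown. Each runs from 150 bases before to 30 bases after the annotated start of a RefSeq transcript (GRCm38.p6), on the gene's strand, and capitals mark CAGGTG or its reverse complement CACCTG. This sequence is an E-box, a type of site that Zeb and Snail repressors are known to bind in the promoters of epithelial genes. The windows lie at chr17:57062081-57062260 (plus strand) for Crb3, chr9:21312304-21312483 (minus) for Ap1m2, chr17:87635829-87636008 (plus) for Epcam, chr5:134946905-134947084 (minus) for Cldn4, chr11:69965271-69965450 (plus) for Cldn7 and chr16:18776697-18776876 (plus) for Cldn5.
Crb3: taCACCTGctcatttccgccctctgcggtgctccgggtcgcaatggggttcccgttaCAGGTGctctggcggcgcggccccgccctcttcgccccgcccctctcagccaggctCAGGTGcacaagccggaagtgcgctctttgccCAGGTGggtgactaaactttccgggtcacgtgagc
Ap1m2: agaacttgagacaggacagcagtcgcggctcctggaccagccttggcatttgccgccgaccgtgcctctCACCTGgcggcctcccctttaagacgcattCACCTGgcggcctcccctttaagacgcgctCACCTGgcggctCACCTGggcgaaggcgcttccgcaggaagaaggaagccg
Epcam: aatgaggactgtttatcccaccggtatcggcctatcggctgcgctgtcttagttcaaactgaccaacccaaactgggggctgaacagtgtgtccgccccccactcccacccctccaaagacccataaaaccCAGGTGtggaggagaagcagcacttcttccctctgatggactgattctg
Cldn4: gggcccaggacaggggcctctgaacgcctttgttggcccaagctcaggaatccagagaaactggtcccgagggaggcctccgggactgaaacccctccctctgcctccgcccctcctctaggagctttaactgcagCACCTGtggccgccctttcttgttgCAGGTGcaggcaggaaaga
Cldn7: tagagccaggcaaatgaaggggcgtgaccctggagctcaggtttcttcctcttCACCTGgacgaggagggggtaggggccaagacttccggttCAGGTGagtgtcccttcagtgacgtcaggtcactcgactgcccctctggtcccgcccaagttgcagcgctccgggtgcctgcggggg
Cldn5: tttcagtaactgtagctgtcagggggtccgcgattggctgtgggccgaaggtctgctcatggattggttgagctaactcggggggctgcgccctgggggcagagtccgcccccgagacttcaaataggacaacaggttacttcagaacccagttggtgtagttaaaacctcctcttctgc
Crb3 and Ap1m2 held the motif 4 times each in these stretches, Cldn4 and Cldn7 2 times each, Epcam 1 time and Cldn5 not at all. Another Cldn7 window, not shown, held no match. The motif did not follow the levels throughout: in the longer windows described next, Dsp, F11r and 1 of the Pard3 windows held it, with highest levels in MRU, and Cldn1, Cldn10 and Cgn, with highest mean levels in CD200+ non-MRU, did not. In Crb3 the matches began 148, 93, 37 and 5 bases before the start, and in Ap1m2 81, 51, 21 and 9 bases before it. RefSeq windows of 300 bases (250 before and 50 after the start) were at hand for 24 of the 37 genes. CAGGTG or CACCTG occurred in 14 of these 24 genes (58.3%), against 2442 of 11292 tested genes with a window (21.6%). By window, the shares were 18 of 33 (54.5%) for the genes described here and 20.2% of 32851 windows of the whole table. Searched the same way on both strands, AACCGG occurred in 4 of the 24 genes (16.7%, against 12% of tested genes) and TATAAA in 3 (12.5%, against 9.4%). These counts describe letters in fixed windows, the windows of 1 gene can overlap, and no binding was measured.

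The first comparison asked how CD200+CD200R1+ MRU differed from remaining MRU. Cldn5, Cldn15 and F11r were lower in CD200+CD200R1+ MRU, and no glandular claudin, cadherin or desmosome gene passed the test. Of the 36 genes tested, 0 rose and 3 fell (8.33%), against 1.62% of all genes that rose and 6.64% that fell, so the share that fell was near that of all genes. The 3 were also free of overlap between the 10 libraries, as were 5.98% of all genes in that direction and 1.20% in the other, and 8.26% of all genes passed in either direction. The median log2 fold change was 0.17 for the 36 genes and 0.02 for all genes. At an unadjusted p under 0.05, edgeR had 5 of the genes higher, and DESeq2 called 3 higher at an adjusted p under 0.05. The count that rose was 8 when the model held the 10 libraries of these populations alone and 1 with mouse as a block.

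Cldn5 (ENSMUSG00000041378, chromosome 16, 18776847 to 18778262), the main claudin of endothelial tight junctions, had 3.82, 15.3, 9.73, 24.5 and 19.2 CPM in CD200+CD200R1+ MRU of mice 2 to 6, against 182, 270, 249, 255 and 222 CPM in remaining MRU. The lowest remaining MRU library was far above the highest double-positive one. The means were 14.5 ± 8.05 and 235 ± 34.7 CPM (SD, n = 5 each), or -4.02 as log2 fold change (SE 0.62, adjusted p = 0.000128 from edgeR). In the non-MRU populations Cldn5 had 1.53 to 8.28 CPM with CD200 and 1.42 to 31.9 CPM with CD200R1, where mice 2 and 3 gave the highest values.

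Cldn15 (chromosome 5, 136966616 to 136975858), a claudin that forms cation pores in the gut, followed the same order at lower levels. It had 1.65, 1.05, 1.58, 0.384 and 0.51 CPM in CD200+CD200R1+ MRU and 8.03, 11.6, 12.8, 12.5 and 10.9 CPM in remaining MRU, again with no overlap (log2 fold change -3.42, SE 0.69, adjusted p = 0.00203 from edgeR). F11r (chromosome 1, 171437535 to 171464603), which encodes the junctional adhesion molecule JAM-A of epithelium, endothelium and platelets, had 108, 85.5, 61, 76.2 and 104 CPM in CD200+CD200R1+ MRU and 170, 182, 171, 178 and 169 CPM in remaining MRU. The libraries of remaining MRU lay within a narrow band above all 5 of the others. The log2 fold change was -1 (SE 0.19, adjusted p = 0.00119 from edgeR). These 3 calls held under each of the 15 alternative settings run.

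Between the MRU populations, endothelial markers moved with these 3 genes. Summed CPM of 10 endothelial markers was 66.1 to 243 in CD200+CD200R1+ MRU and 1950 to 2760 in remaining MRU, and 10 of 10 fell. None of them was at 0 in either population: Pecam1 had 16.2 to 69.5 CPM in CD200+CD200R1+ MRU and 368 to 575 CPM in remaining MRU. Of 8 pericyte markers 6 fell, with sums of 65.6 to 174 and 599 to 814 CPM, and of 8 adipocyte markers 4 fell, with sums of 168 to 381 and 4040 to 5870 CPM. Most of the adipocyte sum was 1 gene, Fabp4, with means of 249 and 4770 CPM. Car3 had means of 9.14 and 74.8 CPM, Cfd 3.8 and 25.1 CPM, and Adipoq 0.54 and 4.4 CPM. Of 10 macrophage markers 7 rose, with sums of 3060 to 6400 and 1560 to 2510 CPM. The part of these cells' RNA in the 3 results was not tested. In the non-MRU populations the endothelial sum was 127 to 289 CPM with CD200 and 181 to 253 CPM with CD200R1. The means there were 4.93 and 15.8 CPM for Cldn5, 0.341 and 7.12 CPM for Cldn15, and 113 and 22.9 CPM for F11r.

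**Figure D2:**
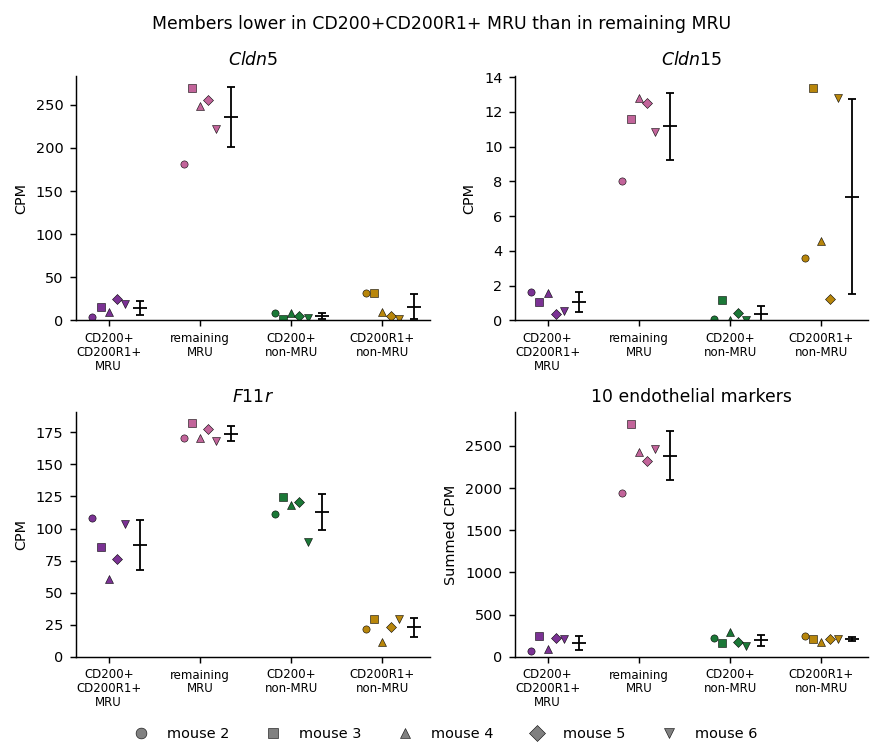
CPM of Cldn5, Cldn15 and F11r and the summed CPM of 10 endothelial markers in each library, by population; symbols mark the mouse, and the bar gives the mean and SD of 5 libraries. Remaining MRU holds the highest values of Cldn5 (182 to 270), of F11r (169 to 182) and of the endothelial sum (1950 to 2760), while Cldn15 in CD200R1+ non-MRU spreads from 1.21 to 13.4.

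Genes that did not pass in this comparison included several with separate groups. Cdh3 had 50.1, 43.6, 42.3, 43.5 and 38.8 CPM in CD200+CD200R1+ MRU and 35.4, 23.1, 19.9, 19.9 and 26.5 CPM in remaining MRU (log2 fold change 0.81, SE 0.42, adjusted p = 0.311 from edgeR). Pkp1 had 50.2 to 70.2 and 26.5 to 46.6 CPM in the same populations (0.79, SE 0.31, adjusted p = 0.143), and Pard3 had 91.8 to 99.6 and 58.4 to 78.8 CPM (0.48, SE 0.18, adjusted p = 0.104). In each of these genes the 5 double-positive libraries lay above the 5 others without passing the test, as they did in Dsg2, Pard6b and Cldn23. The share of all genes that were separate without a call was not counted, so these separations are not read as a rise. With mouse as a block Pard3 passed (adjusted p = 0.0479 from edgeR), and in the 10 libraries of these populations alone Cdh3 did (adjusted p = 0.00276), as did Pkp1 (0.00393), Pard3 (0.00406), Dsp (0.009), Dsg2 (0.0221), St14 (0.0432) and Cdh1 (0.0494). Of 8 basal markers 1 rose and their median log2 fold change was 0.48. Of the claudins of glandular epithelium, Cldn3 (log2 fold change 0.06, SE 0.21, adjusted p = 0.933), Cldn4 (0.25, SE 0.37, adjusted p = 0.785) and Cldn7 (-0.07, SE 0.39, adjusted p = 0.956) did not pass either.

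The second comparison set CD200+ non-MRU against CD200R1+ non-MRU, and most of the genes were higher with CD200. Of 36 genes 28 rose (77.8%) and 4 fell (11.1%) in CD200+ non-MRU, against 23.8% of all genes that rose and 28.6% that fell (52.5% in either direction). Libraries did not overlap for 26 of the genes that rose and 1 that fell, against 15.3% and 17.5% of all genes. The median log2 fold change was 3.68, against -0.06 for all genes. Among those that rose were 8 of 13 claudins, 4 of 4 other tight junction membrane genes, 6 of 6 desmosome genes, 2 of 3 cadherins, and Epcam with its 3 companions. Luminal markers moved with them, 10 of 11 rising, as did 8 of 8 basal and 10 of 10 lymphocyte markers, while 9 of 10 fibroblast and 10 of 10 macrophage markers fell. The other fibroblast marker, Pi16, rose (376 CPM, against 81.3 CPM in CD200R1+ non-MRU). The part of these markers' cells in these counts was not tested. Without the CD200R1+ non-MRU library of mouse 4, the counts were again 28 and 4.

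Crb3, the Crumbs protein of the apical membrane of epithelia, had 29.8, 35.4, 33, 42.1 and 23.6 CPM in CD200+ non-MRU and 0 counts in the 5 CD200R1+ non-MRU libraries. Set against the limit of 3 counts over that population (0.061 CPM), it was at least 542-fold higher in CD200+ non-MRU. Ap1m2, the epithelial subunit of the AP-1 adaptor that sorts proteins to the basolateral membrane, had 28.1, 42.5, 58.4, 42.6 and 46.9 CPM with CD200, while the CD200R1+ non-MRU libraries held 1 count in all. Its count ratio was 2150 (95% counting interval 386 to 85100). The corresponding ratio for Cldn6, a claudin of embryonic epithelia, was 885 (159 to 35000), and that for Marveld3 was 168 (57.1 to 815). Intervals and limits cover counting error only.

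Cldn4 had 746, 988, 555, 708 and 344 CPM in CD200+ non-MRU and 3.49, 2.93, 0.746, 1.01 and 0.203 CPM in CD200R1+ non-MRU (log2 fold change 8.66, SE 0.54, adjusted p = 4.44e-11 from edgeR). Epcam, a surface protein of simple epithelia used to sort them, had 1179, 1740, 1356, 1312 and 820.1 CPM with CD200 and 13.4, 3.03, 3.35, 1.51 and 1.32 CPM with CD200R1 (8.16, SE 0.51, adjusted p = 4.39e-11). In CD200R1+ non-MRU the library of mouse 2 had the most Epcam, as it had the most Krt8 (19.9 CPM) and Cldn7 (3.82 CPM), so the low values were not alike in all mice. Cdh1, E-cadherin, had 85.8, 90.5, 81.5, 69.9 and 50.5 CPM in CD200+ non-MRU and 0.873, 0.209, 0.0932, 0.101 and 0.203 CPM in CD200R1+ non-MRU (8, SE 0.34, adjusted p = 2.98e-13). Cldn3 rose by 8.1 on the log2 scale (SE 0.3), Cldn7 by 7.9 (SE 0.56) and Cldn8 by 7.37 (SE 0.56).

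The 4 genes that fell in CD200+ non-MRU were Cldn15, Cldn11, Cldn5 and Pard3. Pard3, the scaffold of the Par polarity complex, had 24.4, 33.1, 29.8, 21.8 and 16.6 CPM in CD200+ non-MRU and 69.2, 59.5, 63.2, 50.7 and 32.6 CPM in CD200R1+ non-MRU (log2 fold change -1.13, SE 0.18, adjusted p = 2.05e-05 from edgeR). The groups overlapped only through mouse 3 with CD200 and mouse 6 with CD200R1. Cldn15 had 0 to 1.19 and 1.21 to 13.4 CPM (-4.29, SE 0.76, adjusted p = 6.6e-05). Cldn5 (-1.67, SE 0.61, adjusted p = 0.0263) lost its call in 8 of 15 settings, among them the models without CD200+ non-MRU of mouse 3, 5 or 6 or without CD200R1+ non-MRU of mouse 2 or 3, with adjusted p up to 0.1. Tjp1, which encodes the scaffold ZO-1, had 23.3 ± 3.13 and 26 ± 8.07 CPM (SD, n = 5 each) and did not pass (-0.16, SE 0.18, adjusted p = 0.494), and with library-size scaling its log2 fold change was 0.25.

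The next comparisons set the MRU populations against CD200+ non-MRU, and both use the same 5 CD200+ non-MRU libraries. Cdh2, Cdh3, Dsp, Dsg2, Pkp1, Pard3, Tjp1, Cldn5 and Cldn12 were higher in both MRU populations, and Cldn1, Cldn3, Cldn4, Cldn6, Cldn7, Cldn8, the occludin family, Tjp3, Crb3, the proteases, Epcam and Ap1m2 were lower. In CD200+CD200R1+ MRU 11 of 36 genes rose (30.6%) and 15 fell (41.7%), against 23.9% and 24.6% of all genes (48.5% in either direction). In remaining MRU 12 rose (33.3%) and 18 fell (50%), against 24.1% and 20.1% of all genes (44.1% in either direction). Libraries did not overlap for 8 that rose and 15 that fell in CD200+CD200R1+ MRU (18.2% and 17.3% of all genes), and for 12 and 18 in remaining MRU (19.6% and 14.9%). The median log2 fold changes were -0.85 and -1.17, and those of all genes were -0.03 and 0.01. Basal markers were higher in both MRU populations (8 of 8), and luminal markers were lower (10 of 11 in CD200+CD200R1+ MRU and 11 of 11 in remaining MRU). Macrophage markers were higher (10 of 10 in both), and lymphocyte markers (10 of 10 in both) and fibroblast markers (9 of 10 in both) were lower. The exception in remaining MRU was Pdgfrb, which was higher (24.8 CPM, against 12.7 CPM in CD200+ non-MRU). The part of these markers' cells in the counts was not tested.

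**Figure D3:**
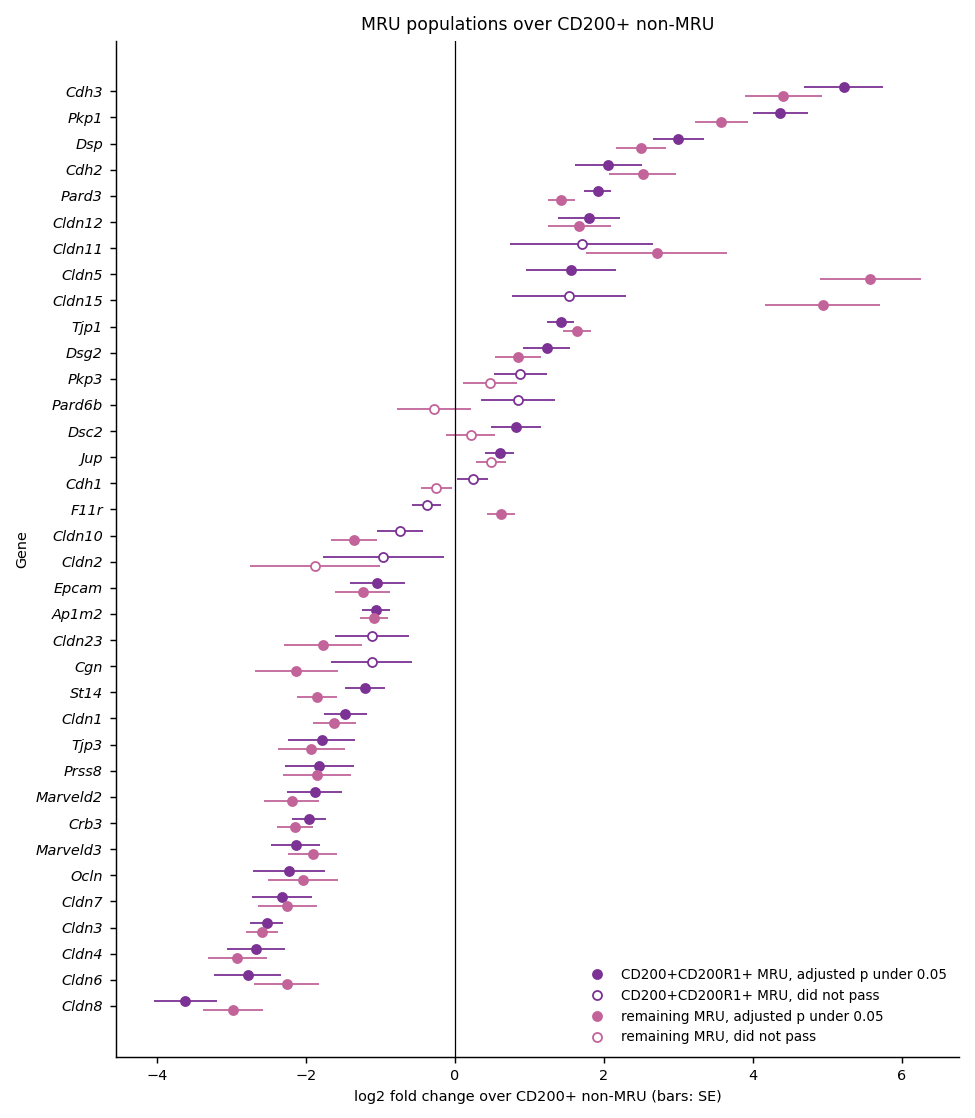
Log2 fold change of the 36 tested genes over CD200+ non-MRU, for CD200+CD200R1+ MRU and for remaining MRU, with SE as bars; filled points passed at an adjusted p under 0.05. Cdh3 (5.22 and 4.41) and Pkp1 (4.37 and 3.58) are high in both, Cldn8 (-3.62 and -2.98) is low in both, and Cldn5 (1.56 and 5.58) and Cldn15 (1.53 and 4.94) are the highest in remaining MRU.

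Among the claudins, Cldn8, which limits cation passage in tight epithelia, showed the largest fall in both MRU populations. It had 2.4, 2.81, 5.43, 1.46 and 2.11 CPM in CD200+CD200R1+ MRU, 1.75, 3.52, 5.12, 6.66 and 5.18 CPM in remaining MRU, and 27.4, 34.3, 52.8, 20.4 and 40.5 CPM in CD200+ non-MRU. The MRU libraries stayed below every CD200+ non-MRU library, with log2 fold changes of -3.62 (SE 0.42, adjusted p = 4.58e-07) and -2.98 (SE 0.4, adjusted p = 4.07e-06). Cldn3 had 89, 96.8, 78.2, 54.9 and 52.9 CPM in CD200+CD200R1+ MRU, 63.3, 91.1, 52.4, 74.3 and 76.4 CPM in remaining MRU, and 386, 480, 476, 425 and 384 CPM in CD200+ non-MRU. Cldn3 and Cldn4 are neighbours on chromosome 5 (134986214 to 134987472 and 134945119 to 134946934). Their log2 fold changes were -2.53 (SE 0.22) and -2.67 (SE 0.39) in CD200+CD200R1+ MRU and -2.59 (SE 0.22) and -2.92 (SE 0.4) in remaining MRU.

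Cldn7 fell by 2.32 (SE 0.4) and 2.25 (SE 0.4) on the log2 scale, and Cldn6 by 2.78 (SE 0.45) and 2.26 (SE 0.44), in CD200+CD200R1+ MRU and remaining MRU. Cldn1, the claudin of the epidermal barrier, fell by 1.47 and 1.62. Cldn10 was lower in remaining MRU (-1.36, SE 0.31, adjusted p = 0.00119) and sat at the threshold in CD200+CD200R1+ MRU (-0.74, SE 0.31, adjusted p = 0.05 as rounded, not called). There it passed in 5 of 15 alternative settings, among them mouse as a block (adjusted p = 0.0226) and the model without mouse 6 of CD200+CD200R1+ MRU (adjusted p = 0.0119). Cldn23 was lower in remaining MRU (-1.77, SE 0.52, adjusted p = 0.00824) and had -1.11 (SE 0.5, adjusted p = 0.0739) in CD200+CD200R1+ MRU, where it passed in 2 of 15 settings. Cldn12 went the other way, with 17.1 to 23.6 CPM in CD200+CD200R1+ MRU, 14.1 to 21.2 CPM in remaining MRU and 1.5 to 12.8 CPM in CD200+ non-MRU (log2 fold changes 1.8, SE 0.42, and 1.67, SE 0.42).

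**Figure D4:**
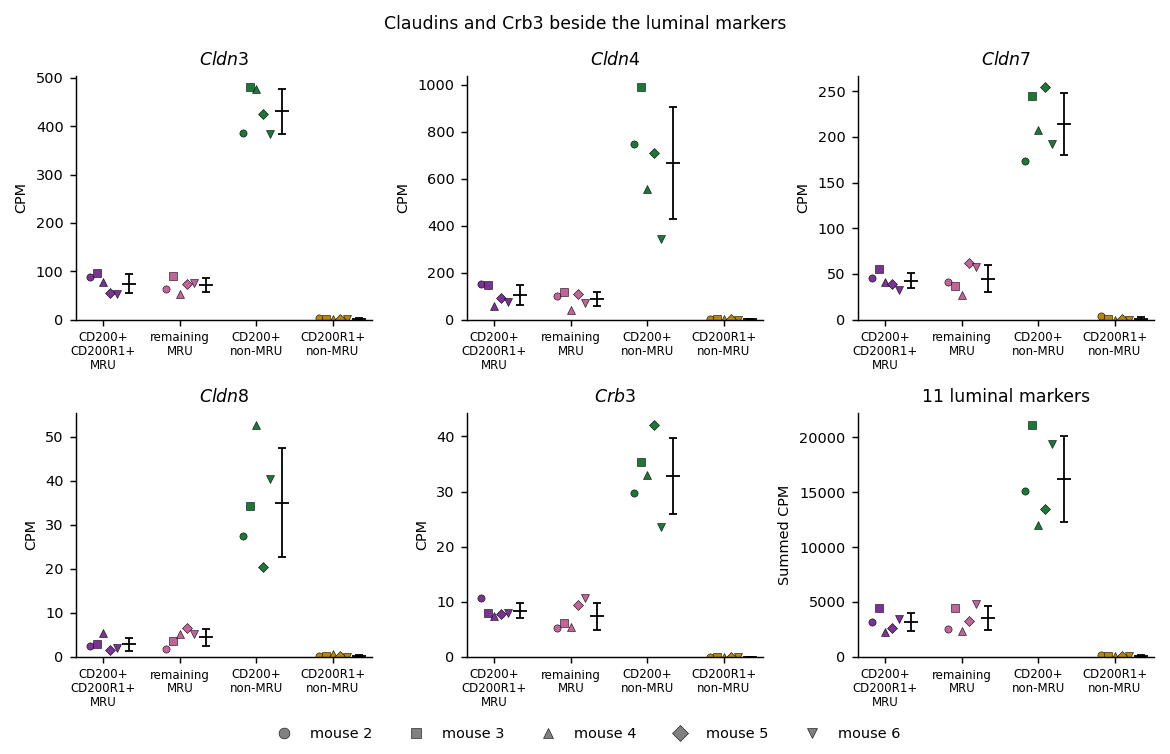
CPM of Cldn3, Cldn4, Cldn7, Cldn8 and Crb3 and the summed CPM of 11 luminal markers in each library, by population; symbols mark the mouse, and the bar gives the mean and SD of 5 libraries. CD200+ non-MRU is highest in each panel (Cldn3 384 to 480, luminal sum 12000 to 21100), the MRU populations overlap each other, and CD200R1+ non-MRU lies near 0.

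Claudin levels can be compared with one another only per exon length, as CPM per kilobase. On that scale Cldn4 (368 ± 131, SD, n = 5) and Cldn3 (342 ± 37.2) led in CD200+ non-MRU and did not differ beyond their spread, followed by Cldn7 (110 ± 17.6) and Cldn10 (38.9 ± 6.88). In CD200+CD200R1+ MRU Cldn3 (59.1 ± 15.8) and Cldn4 (57.9 ± 23.8) again led, before Cldn10 (23.2 ± 9.91) and Cldn7 (22 ± 4.41). In remaining MRU Cldn5 (166 ± 24.5) stood above Cldn3 (56.8 ± 11.6) and Cldn4 (48.5 ± 16.7). In CD200R1+ non-MRU the highest were Cldn10 (11.8 ± 5.83) and Cldn5 (11.1 ± 10.5), whose ranges overlap. Cldn2, a pore claudin of leaky epithelia, reached at most 0.238 CPM per kilobase as a population mean and Cldn11, known from myelin and Sertoli cells, at most 1.28. Cldn11 had 1.37 CPM in remaining MRU and 0.205 CPM in CD200+ non-MRU (log2 fold change 2.71, SE 0.95, adjusted p = 0.0249), and lost that call without mouse 4 of remaining MRU or mouse 3 or 4 of CD200+ non-MRU, with adjusted p up to 0.0547.

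The other tight junction membrane genes mostly followed the glandular claudins. Ocln, occludin, had 5.17, 12, 11.4, 9.28 and 6.63 CPM in CD200+CD200R1+ MRU, 10, 12.8, 5.2, 12.2 and 10.6 CPM in remaining MRU, and 34.1, 47.8, 44.1, 40.7 and 42.6 CPM in CD200+ non-MRU. No MRU library reached the lowest CD200+ non-MRU value, and the log2 fold changes were -2.23 (SE 0.48, adjusted p = 0.000598) and -2.04 (SE 0.47, adjusted p = 0.00136). Marveld2, which encodes tricellulin at the points where 3 cells meet, fell by 1.88 and 2.19, and Marveld3 by 2.14 and 1.91. F11r took another course: 86.9 ± 19.5 CPM in CD200+CD200R1+ MRU did not pass against 113 ± 13.8 CPM in CD200+ non-MRU (-0.38, SE 0.19, adjusted p = 0.105), and 174 ± 5.75 CPM in remaining MRU was higher (0.62, SE 0.19, adjusted p = 0.0102).

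The plaque genes were divided. Tjp1 had 75.5, 69.2, 51.2, 63.8 and 53.3 CPM in CD200+CD200R1+ MRU, 78.2, 77.6, 73.8, 66.4 and 67.5 CPM in remaining MRU, and 25.9, 25.6, 18.8, 21.4 and 25 CPM in CD200+ non-MRU. Each MRU library had more Tjp1 than each CD200+ non-MRU library (log2 fold changes 1.42, SE 0.18, adjusted p = 2.17e-06, and 1.64, SE 0.19, adjusted p = 3.82e-07). Tjp3, which encodes ZO-3 of simple epithelia, was lower in both (-1.79, SE 0.45, and -1.93, SE 0.45). Cgn, cingulin, was lower in remaining MRU (-2.13, SE 0.56, adjusted p = 0.00375) and had -1.12 (SE 0.54, adjusted p = 0.0905) in CD200+CD200R1+ MRU.

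The polarity genes also moved apart. Crb3 had 10.7, 8.02, 7.47, 7.83 and 8.02 CPM in CD200+CD200R1+ MRU and 5.25, 6.17, 5.45, 9.39 and 10.6 CPM in remaining MRU, below the 23.6 to 42.1 CPM of CD200+ non-MRU (log2 fold changes -1.96, SE 0.23, adjusted p = 2.5e-06, and -2.15, SE 0.24, adjusted p = 1.05e-06). Pard3 was the opposite, with 96.4, 92.8, 94.2, 99.6 and 91.8 CPM in CD200+CD200R1+ MRU, 78.8, 63.4, 71.3, 58.4 and 67.3 CPM in remaining MRU and 24.4, 33.1, 29.8, 21.8 and 16.6 CPM in CD200+ non-MRU (1.92, SE 0.18, adjusted p = 3.75e-08, and 1.43, SE 0.18, adjusted p = 1.74e-06). Pard6b, a partner of Pard3 in the same complex, had means of 7.42, 3.4 and 4.12 CPM in these populations and passed in neither comparison (adjusted p = 0.169 and 0.688).

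Cdh3, P-cadherin, which marks myoepithelial cells in the mammary gland, had the largest rise in CD200+CD200R1+ MRU. Set against the MRU values given above, CD200+ non-MRU had 0.0789, 3.28, 1.21, 1.03 and 0.0816 CPM. The log2 fold changes were 5.22 (SE 0.53, adjusted p = 8.49e-08) in CD200+CD200R1+ MRU and 4.41 (SE 0.52, adjusted p = 6.68e-07) in remaining MRU. Cdh3 lies beside Cdh1 on chromosome 8 (106510891 to 106557297 and 106603351 to 106670246), and Cdh1 passed in neither comparison. Cdh1 had 110, 90.5, 103, 86.3 and 56.3 CPM in CD200+CD200R1+ MRU, 75.8, 58.7, 63.6, 57.2 and 62.4 CPM in remaining MRU and 50.5 to 90.5 CPM in CD200+ non-MRU, with overlapping groups (0.24, SE 0.21, adjusted p = 0.37, and -0.25, SE 0.21, adjusted p = 0.353). Cdh2, N-cadherin, was low but higher in MRU, with means of 7.17 ± 2.41, 9.89 ± 3.21 and 1.71 ± 1.13 CPM (2.06, SE 0.45, adjusted p = 0.000692, and 2.52, SE 0.45, adjusted p = 0.000108).

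**Figure D5:**
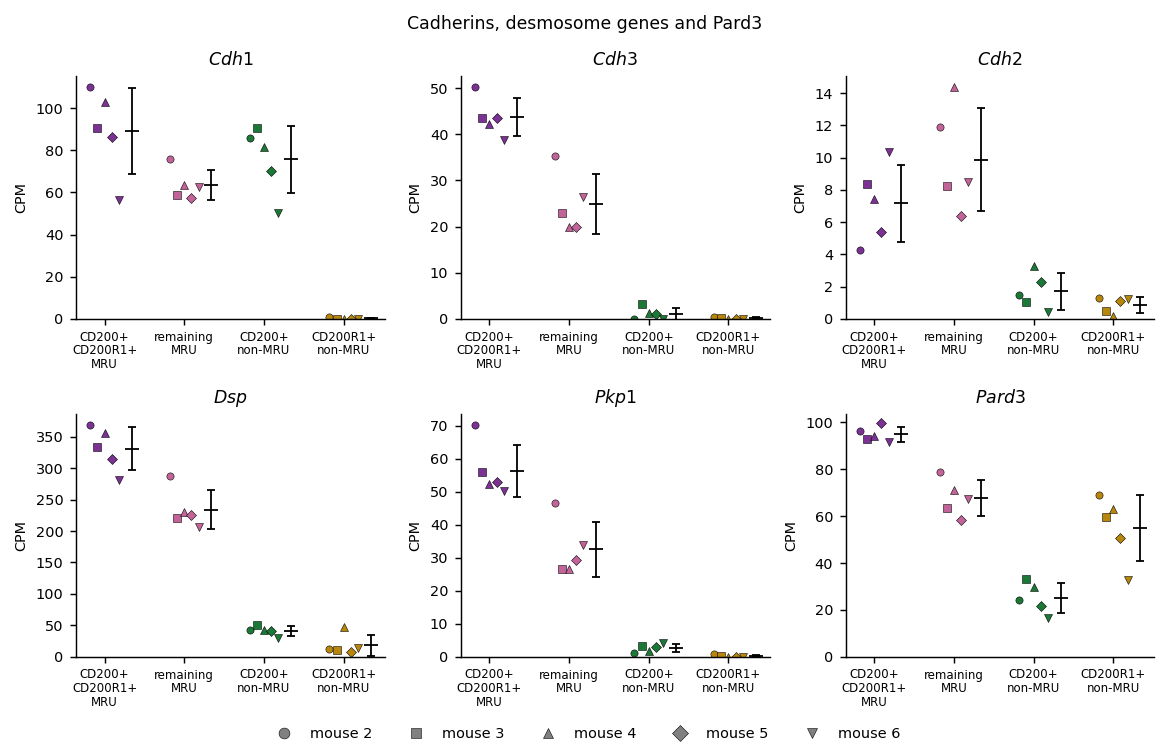
CPM of Cdh1, Cdh3, Cdh2, Dsp, Pkp1 and Pard3 in each library, by population; symbols mark the mouse, and the bar gives the mean and SD of 5 libraries. Cdh1 overlaps among the MRU populations and CD200+ non-MRU (50.5 to 110), whereas Cdh3, Dsp and Pkp1 in both MRU populations lie above every non-MRU library.

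Over CD200+ non-MRU, 5 of 6 desmosome genes passed as higher in CD200+CD200R1+ MRU, where 23.9% of all genes did. For remaining MRU the count was 3 of 6, with 24.1% of all genes higher, so the other 3 desmosome genes did not pass there. Dsp, desmoplakin, which links desmosomes to keratin, had 368, 334, 356, 314 and 281 CPM in CD200+CD200R1+ MRU, 288, 220, 230, 225 and 206 CPM in remaining MRU and 43, 51.2, 42.6, 40.6 and 29.9 CPM in CD200+ non-MRU. The groups were far apart, with log2 fold changes of 3 (SE 0.34, adjusted p = 4.35e-07) and 2.5 (SE 0.34, adjusted p = 3.95e-06). Pkp1, the plakophilin of stratified epithelia, had 70.2, 56.1, 52.4, 52.9 and 50.2 CPM in CD200+CD200R1+ MRU, 46.6, 26.5, 26.6, 29.2 and 33.9 CPM in remaining MRU and 1.26, 3.35, 1.88, 3.02 and 4.08 CPM in CD200+ non-MRU (4.37, SE 0.37, adjusted p = 6.8e-09, and 3.58, SE 0.36, adjusted p = 8.22e-08). Dsg2, a desmosomal cadherin, rose by 1.23 (SE 0.31) and 0.85 (SE 0.31).

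The remaining desmosome genes differed less. Jup, plakoglobin, rose in CD200+CD200R1+ MRU (0.6, SE 0.2, adjusted p = 0.0182) and had 0.48 (SE 0.2, adjusted p = 0.0593) in remaining MRU. Pkp3 had means of 58.5 ± 7.62, 43.9 ± 9.99 and 31.7 ± 6.02 CPM, with no call in either (0.88, SE 0.36, adjusted p = 0.05 as rounded, and 0.47, SE 0.36, adjusted p = 0.316). The first of these passed in 6 of 15 alternative settings. Among them were the models without mouse 6 of CD200+CD200R1+ MRU (adjusted p = 0.0387) and without mouse 6 of CD200+ non-MRU (adjusted p = 0.0373). Dsc2 rose in CD200+CD200R1+ MRU (0.82, SE 0.33, adjusted p = 0.0439), and lost that call without mouse 2, 4 or 5 of CD200+CD200R1+ MRU or mouse 2, 3, 4 or 5 of CD200+ non-MRU, with adjusted p up to 0.0795.

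Epcam and its 3 companions were lower in both MRU populations, 4 of 4 each. Epcam had 768.1, 754.6, 511.1, 417.1 and 673.2 CPM in CD200+CD200R1+ MRU, 641.6, 559.4, 435.7, 481.4 and 588.3 CPM in remaining MRU, and 1179, 1740, 1356, 1312 and 820.1 CPM in CD200+ non-MRU, with the nearest values at mouse 2 and mouse 6. The log2 fold changes were -1.04 (SE 0.37, adjusted p = 0.0245) and -1.24 (SE 0.37, adjusted p = 0.00925), and the first lost its call without mouse 4 or 5 of CD200+CD200R1+ MRU or mouse 3, 4 or 5 of CD200+ non-MRU, with adjusted p up to 0.0829. St14, matriptase, had 15.1 to 25.7, 8.95 to 16.9 and 43.7 to 51.7 CPM in the same populations (-1.21, SE 0.27, and -1.85, SE 0.27), and Prss8, prostasin, which acts in the same protease cascade, 5.17 to 10.2, 3.12 to 9.47 and 16 to 28.7 CPM (-1.82, SE 0.46, and -1.85, SE 0.46). Ap1m2 had 17.7 to 26.5, 18.5 to 24 and 28.1 to 58.4 CPM (-1.06, SE 0.19, and -1.09, SE 0.19).

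Cldn5 in these comparisons had log2 fold changes of 1.56 (SE 0.61, adjusted p = 0.0385) in CD200+CD200R1+ MRU and 5.58 (SE 0.68, adjusted p = 1.07e-06) in remaining MRU. The first lost its call with mouse as a block and without mouse 3, 5 or 6 of CD200+CD200R1+ MRU or of CD200+ non-MRU, with adjusted p up to 0.0917. Cldn15 had 4.94 (SE 0.77, adjusted p = 2.19e-05) in remaining MRU. Of 10 endothelial markers, 9 were higher in remaining MRU than in CD200+ non-MRU, and their part in these values was not tested.

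The last 2 comparisons set the MRU populations against CD200R1+ non-MRU and share its 5 libraries. Most genes of every role were higher in MRU. In CD200+CD200R1+ MRU 32 of 36 genes rose (88.9%) and 1, Cldn15, fell (2.78%), against 22.8% and 24.0% of all genes (46.8% in either direction). In remaining MRU 31 rose (86.1%) and 0 fell, against 22.4% and 21.6% of all genes (44.1% in either direction), with 0 lower also at an unadjusted p under 0.05 and by DESeq2. Libraries did not overlap for 31 that rose and 0 that fell in CD200+CD200R1+ MRU (15.0% and 15.8% of all genes) and for 30 and 0 in remaining MRU (16.2% and 15.0%). Basal markers (8 of 8) and luminal markers (10 of 11) were higher and fibroblast markers (10 of 10) lower in both MRU populations. The other luminal marker, Esr1, was lower in both (15.7 and 10.5 CPM, against 47.1 CPM). In remaining MRU 10 of 10 endothelial, 5 of 8 pericyte and 6 of 8 adipocyte markers were also higher, and 0 of each were lower. In CD200+CD200R1+ MRU 4 endothelial markers were higher and 2 lower, 2 pericyte markers higher and 4 lower, and 3 adipocyte markers higher and 2 lower. The part of these markers' cells in the counts was not tested. Without the CD200R1+ non-MRU library of mouse 4 the counts were the same, 32 and 1 in CD200+CD200R1+ MRU and 31 and 0 in remaining MRU. Among the large changes by the fitted model were Cdh1 (8.23, SE 0.34, and 7.75, SE 0.34), Cdh3 (8.16, SE 0.7, and 7.35, SE 0.7) and Pkp1 (7.67, SE 0.49, and 6.88, SE 0.49), all on the log2 scale. Epcam had 7.12 (SE 0.49) and 6.91 (SE 0.49), and Crb3 was at least 138-fold and at least 121-fold higher in CD200+CD200R1+ MRU and remaining MRU.

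A few genes passed the test against CD200R1+ non-MRU in a single MRU population and not in the other. Pard3 was higher in CD200+CD200R1+ MRU (log2 fold change 0.79, SE 0.18, adjusted p = 0.000939) and did not pass in remaining MRU (0.3, SE 0.18, adjusted p = 0.18), where library-size scaling gave 0.68 and a call (adjusted p = 0.00391). Cldn10 had 36.5 to 104 CPM in CD200+CD200R1+ MRU, 23.5 to 55.8 CPM in remaining MRU and 17.1 to 54.3 CPM in CD200R1+ non-MRU (0.98, SE 0.31, adjusted p = 0.0129, and 0.36, SE 0.31, adjusted p = 0.374). Cldn5 had -0.12 (SE 0.58, adjusted p = 0.89) in CD200+CD200R1+ MRU, with a sign that turned with library-size scaling (0.32) and with mouse as a block (0.11), and 3.9 (SE 0.62, adjusted p = 2.27e-05) in remaining MRU. Cldn15 had 0.65 (SE 0.61, adjusted p = 0.419) in remaining MRU.

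Other genes of the same junctions, 91 with a row in the table, were compared within MRU, where 1.62% of all genes rose and 6.64% fell. Of 15 other tight junction genes tested 0 rose, also at an unadjusted p under 0.05 and by DESeq2, and 3 fell in CD200+CD200R1+ MRU. These were the junctional adhesion genes Jam2 (20 CPM, against 177 CPM in remaining MRU, log2 fold change -3.14, SE 0.27) and Jam3 (-2.01, SE 0.22), and Myzap (-2.61, SE 0.46). Of 21 adherens junction genes 1 rose, Nectin1 (85.4 and 40.7 CPM, 1.07, SE 0.21, adjusted p = 0.00136), and 3 fell, Cdh5, the cadherin of endothelium (12.3 and 162 CPM, -3.72, SE 0.56, adjusted p = 8.5e-05), Afdn (-0.86, SE 0.21) and Nectin2 (-0.62, SE 0.17). Of 22 polarity genes 1 rose (2 by DESeq2), Amotl1 (175 and 124 CPM, 0.5, SE 0.14, adjusted p = 0.0289), and 2 fell, Rab11a (-0.87, SE 0.13) and Lin7a (-4.03, SE 0.55). The call of Amotl1 did not hold without a filter, nor without mouse 2, 3 or 5 of CD200+CD200R1+ MRU or mouse 4, 5 or 6 of remaining MRU, where 0 polarity genes rose, and without mouse 2 of remaining MRU 2 rose. Of 6 other desmosome genes 0 passed, also at an unadjusted p under 0.05 and by DESeq2.

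Against CD200+ non-MRU, Ctnna1 and Ctnnb1, catenins that tie cadherins to actin, rose in both MRU populations. Ctnna1 had means of 329, 352 and 133 CPM in CD200+CD200R1+ MRU, remaining MRU and CD200+ non-MRU (log2 fold changes 1.31, SE 0.13, and 1.4, SE 0.13), and Ctnnb1, beta-catenin, 264, 302 and 118 CPM (1.16, SE 0.11, and 1.36, SE 0.11). Of the 21 adherens junction genes 12 rose and 2 fell in CD200+CD200R1+ MRU, and 13 rose and 1 fell in remaining MRU (2 without mouse 2 of remaining MRU). Of all genes, 23.9% rose and 24.6% fell in CD200+CD200R1+ MRU, and 24.1% rose and 20.1% fell in remaining MRU. Perp, a desmosome-associated membrane protein, had 599, 459 and 66.5 CPM (3.17, SE 0.33, and 2.79, SE 0.32), and Pkp2, the plakophilin of simple epithelia, was lower in MRU (-1.94, SE 0.37, and -1.95, SE 0.37). Pard6g, which encodes another Par6 protein, had 64.3, 43.9 and 6.05 CPM (3.41, SE 0.2, and 2.86, SE 0.2), while its relative Pard6b passed in neither comparison. Of 22 other polarity genes 11 rose and 4 fell in CD200+CD200R1+ MRU, and 12 rose and 4 fell in remaining MRU. The count that fell there was 2 without mouse 2, 4 or 5 of remaining MRU or mouse 5 of CD200+ non-MRU.

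Between the non-MRU populations the other junction genes moved in both directions. In CD200+ non-MRU 5 of 15 tight junction genes rose and 5 fell, 4 of 22 polarity genes rose and 8 fell, and 5 of 21 adherens junction genes rose and 8 fell, while 6 of 6 desmosome genes rose, against 23.8% of all genes that rose and 28.6% that fell. With library-size scaling 9 polarity genes rose and 6 fell, and 6 adherens junction genes rose and 5 fell. Lsr, angulin-1 of tricellular contacts, had means of 27.8 and 0.629 CPM (log2 fold change 5.44, SE 0.24), and Rab25, an epithelial recycling GTPase, 63 and 0.396 CPM (7.31, SE 0.5). Cdh11, a cadherin of mesenchymal cells, was lower with 19.4 and 430 CPM (-4.47, SE 0.25, adjusted p = 6.38e-12), and Nectin1 with 5.64 and 40.4 CPM (-2.84, SE 0.23, adjusted p = 1.49e-09).

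In 6 of the 37 genes some exon bases overlap a gene on the opposite strand, and whether counting used the strand is not stated. The overlaps are 40 of 1259 bases in Cldn3, 14 of 1564 in Crb3, 122 of 1852 in Prss8, 40 of 3714 in Tjp3, 330 of 8268 in Dsg2 and 499 of 9659 in Dsp.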

How the data were processed

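The submitters' processing notes name GRCm38, cutadapt, HTSeq, STAR (2.4.2a) and DESeq2, without settings, order or annotation release. The authors deposited raw counts per Ensembl gene, used here as deposited; another 20 columns of normalized values were not used. Genes passing filterByExpr of edgeR 4.0.16 in R 4.3.3 (17236 of 46603) were scaled by TMM and fitted in 1 quasi-likelihood model of 20 libraries with population as the term, with Benjamini-Hochberg adjustment over all genes tested and a threshold of 0.05. CPM are counts scaled to TMM-adjusted library size, and per-kilobase values use GENCODE exon lengths on GRCm38. Where a population had no count, folds are bounds from 3 counts over the population, and for 1 to 3 counts a ratio with its exact 95% interval is given. The model was also run on simulated counts in which most genes had the same level in all populations. The real populations differ far more widely, so that run does not show how the model performs on them.

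The genes, the lists of other junction genes and the markers were chosen with earlier results of these data known. Named fold changes are those of called genes without overlap and averaging 10 CPM or more, up to 10 per direction and comparison, those of uncalled genes at that level, and the 4 smallest adjusted p of each list of other junction genes. Other values were added after they were seen.

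Replicate numbers are individual mice per the labels, so they pair libraries: deviations of same-mouse libraries correlated at 0.0014 to 0.26 (median 0.077, 30 pairs), and those of different mice at -0.17 to 0.16 (median -0.027, 120 pairs). None of 40 replicate pairs agreed within sampling noise. Alternatives were library-size scaling, no filter, mouse as a block, the 10 libraries of each comparison alone, DESeq2 1.42.0 and leaving out each library. Scaling by library size alone moved the median over all genes (log2 fold change) to 0.37 between the non-MRU populations and to 0.43 and 0.41 for CD200+CD200R1+ MRU and remaining MRU over CD200R1+ non-MRU, against -0.06, 0.01 and 0.02 with TMM.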

Additional observations from a re-analysis of the deposited data

Results flagged for a closer look

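In 74 groups of 5 libraries (genes averaging 10 CPM or more in the population), 2 had a library whose gap to its neighbour was too wide a share of the group's range by Dixon's test, where chance gives about 5% of groups. Dsp had 47.2 CPM in CD200R1+ non-MRU of mouse 4, the library with cells from mouse 3, and 6.95 to 14.1 CPM in the other 4 (gap 0.821 of the range). Pkp3 had 45.5 CPM in CD200+CD200R1+ MRU of mouse 6 and 60.1 to 65.8 CPM in the others (0.723 of the range).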

How the results depend on the processing

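Over 15 alternative settings each, 174 of 180 recounts of the genes called stayed within 1.5 times the reported count. The genes higher in CD200+CD200R1+ MRU than in remaining MRU numbered 1 with the replicate block of mouse, 8 in the 10 libraries alone and 3 by DESeq2, against 0. The genes lower in CD200+ non-MRU than in CD200R1+ non-MRU numbered 2 in the 10 libraries alone, against 4. The count lower in CD200+CD200R1+ MRU than in CD200R1+ non-MRU ran from 1 to 2 when 1 library was left out, with 2 without mouse 5 of either population. Of 720 recounts of the other junction genes, 46 moved by more than 1.5 times. Within MRU, the 10 libraries alone gave 2 higher and 5 lower adherens junction genes, 4 higher polarity genes and 1 higher tight junction gene, against 1, 3, 1 and 0. Polarity genes higher within MRU numbered 0 without a filter, 2 with the replicate block, 2 by DESeq2 and 0 to 2 without 1 library, and desmosome genes higher numbered 1 without a filter, against 0. Library-size scaling gave 5 lower adherens junction genes and 9 higher polarity genes between the non-MRU populations, against 8 and 4. Over CD200R1+ non-MRU it gave 1 lower adherens junction gene and 2 lower tight junction genes in CD200+CD200R1+ MRU, against 2 and 5, and 2 lower polarity genes and 1 lower tight junction gene in remaining MRU, against 4 and 3. Over CD200+ non-MRU, lower tight junction genes in CD200+CD200R1+ MRU numbered 2 without a filter, 2 in the 10 libraries alone and 2 to 4 without 1 library, against 4. In remaining MRU, lower polarity and tight junction genes numbered 2 and 1 without a filter, against 4 and 2, and ran from 2 to 4 and from 1 to 2 without 1 library, and lower adherens junction genes ran from 1 to 2. Over CD200R1+ non-MRU, leaving out 1 library gave 1 to 3 lower adherens junction genes in CD200+CD200R1+ MRU and 2 to 4 lower polarity genes in remaining MRU. Of 1545 refits of 103 fold changes, 1503 kept direction and side of the threshold, 28 passed where the reported value did not, and 14 changed sign, none of them a called value. Leaving out 1 library moved the log2 fold change of Cldn3 within MRU between -0.04 and 0.17, of Cldn7 between -0.2 and 0.09, and of Ap1m2 between -0.06 and 0.1, and that of Cldn5 in CD200+CD200R1+ MRU over CD200R1+ non-MRU between -0.41 and 0.31. Library-size scaling gave 0.25 for Tjp1 between the non-MRU populations and 0.32 for Cldn5, and the replicate block 0.11 for Cldn5. The block also ended 2 calls of Cldn5 given above. The cause of these moves was not tested. With 5 libraries per population, a missed call does not show that levels were equal.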
